A study of Mus musculus with 16 samples.

Results

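This account compares what loss of Gpr161 does in the Tail with what it does in the Head of the mouse embryo. It uses the Head and Tail libraries of wild type (WT) and Gpr161 knockout (KO) embryos, which are 8 of the 16 RNA-seq libraries of the series and 4 of its 8 groups, with 2 libraries in each group. All were taken at stage E10.5. Head means the tissue above the third branchial arches and Tail the tissue below the forelimbs, so the forelimbs and the trunk between these levels belong to neither. The other 8 libraries, Head and Tail of Fuz KO and of Fuz:Gpr161 double knockout (DKO) embryos, entered the fit to share its estimate of the spread. The labels give no allele, strain, Cre driver or embryo number for the KO, and nothing that all groups carry. They do not say that the libraries of a group come from separate embryos, so the spread between the WT libraries may be technical, while the Gpr161 KO libraries of each region differ in sex (below). The quantity of interest is the log2 fold change of Gpr161 KO against WT in the Tail minus the same log2 fold change in the Head, called the difference here. A positive difference means that the KO level, relative to WT, was higher in the Tail than in the Head.

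Gpr161 is a receptor of the primary cilium. It keeps protein kinase A active near the cilium when no Hedgehog ligand is present, and so favours the processing of Gli proteins into repressors. In the neural tube and somites, Hedgehog signalling induces ventral and sclerotomal fates, while dorsal fates, neural crest and the dermomyotome form where it is low. Wnt signals of the roof plate and surface ectoderm act on the dorsal side.

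Total counts in the 8 libraries ran from 39062489 to 43353989. Levels below are CPM (counts scaled to a common library size, after TMM scaling), and compare a gene between libraries, not genes with each other. Gpr161 itself had 55.0 and 54.0 CPM in Head WT and 46.8 and 51.5 CPM in Tail WT, against 4.21 and 4.31 CPM in Head KO and 4.98 and 4.08 CPM in Tail KO. Its fold change differed between Tail and Head by 0.24 ± 0.49 (log2, SE; 95% interval -0.83 to 1.31), so the target fell in both with no detected difference. Six3, a forebrain and eye gene, had 16.2 to 30.2 CPM in the Head libraries and at most 0.0479 CPM in the Tail libraries, while Hoxc10, a posterior Hox gene, had 55.2 to 71.1 CPM in the Tail and 0 in the Head. By Xist and the Y-linked gene Ddx3y, both Gpr161 KO 1 libraries were male and the other 6 libraries female. The hypoxia and glycolysis list lay above the WT mean, by a median log2 of 1.24 and 0.57 in Head KO 1 and 2 and of 1.03 and 0.33 in Tail KO 1 and 2. The part of sex and of this shift in the results below was not tested. Without both KO 1 libraries all 20 genes called below kept the sign of their difference, and 1 of them, Myh6, stayed past the threshold.

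Of 21284 genes tested, 20 had a difference with an adjusted p under 0.05 by edgeR's quasi-likelihood test with Benjamini-Hochberg adjustment, a share of 0.094%. Of these, 4 were higher (0.0188%) and 16 lower (0.0752%), and 1119 genes (5.26%) had an unadjusted p under 0.05. The Gpr161 KO effect within the Head was called for 429 genes (2.02%; 321 higher, 1.51%, and 108 lower, 0.507%). Within the Tail it was called for 65 genes (0.305%; 17 higher, 0.0799%, and 48 lower, 0.226%). The 33 genes called in both are 7.69% of the Head calls and 50.8% of the Tail calls, and 32 of them had the same sign. The exception was Dmrt2. Over all 21284 genes, edgeR's test gave an unadjusted p under 0.05 for 2747 in the Head and 1486 in the Tail. DESeq2 called 225 differences, 42 higher and 183 lower. The list counts below stand against these totals.

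The called genes fall into sets by what they are known for. The neural crest factors Sox10 and Foxd3 fell in the Tail and were not called in the Head. Of the dermomyotome factors, Dmrt2 fell in the Tail and rose in the Head, and Pax7 fell in both, further in the Tail. Sp8 and Evx1 fell in the Head and did not pass the test in the Tail. Genes of striated muscle rose in the Head. Of the 20 genes, 18 were called in the Head, 5 in the Tail and 3 in both, and the estimates had opposite signs in 15.

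**Figure D1:**
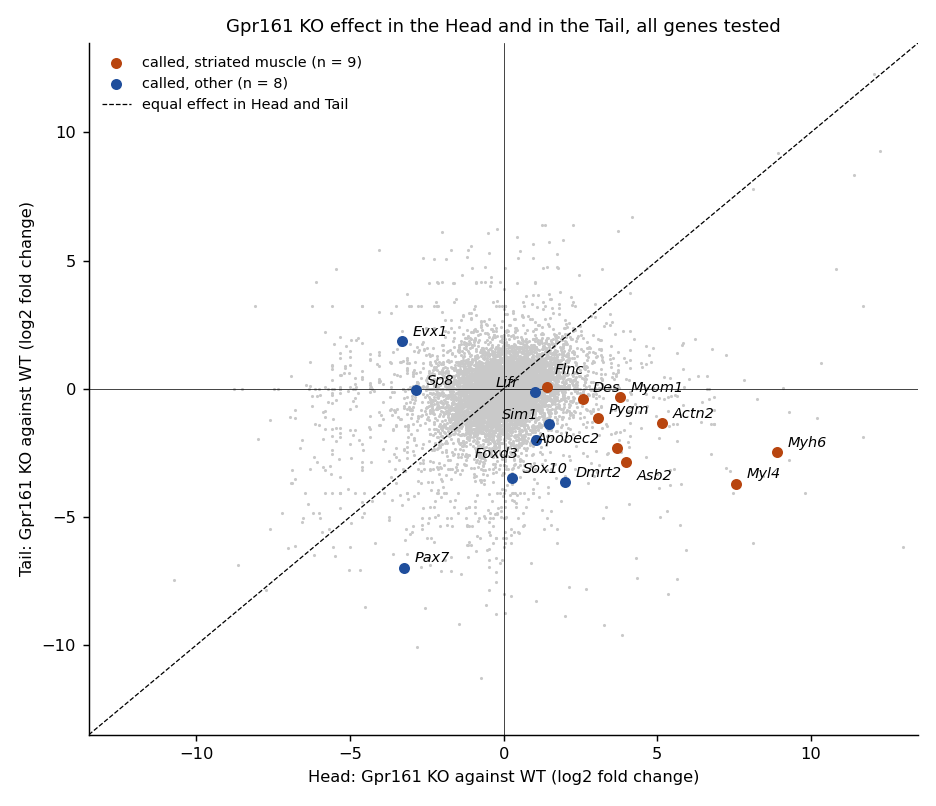
Log2 fold change of Gpr161 KO against WT in the Head (horizontal axis) and in the Tail (vertical axis) for the 21284 genes tested. Coloured points are 17 of the genes called for the difference, and the dashed line marks equal effects: 15 of them lie below it and 2 above it.

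Treating the Head and Tail libraries of the same genotype and number as a pair (a block in the model, with the check of this pairing under the processing steps) raised the count from 20 to 217 (1.02%; 39 higher, 0.183%, and 178 lower, 0.836%). Of the 20 genes, 16 were among the 217. The 4 that were not are Sox10 (adjusted p = 0.0686), Des (adjusted p = 0.153), Actn2 (adjusted p = 0.113) and Myl4 (adjusted p = 0.0602). The count also depends on single libraries: it was 0 without Head WT 2, with 939 genes at an unadjusted p under 0.05, and 50 without Head Gpr161 KO 2. None of the 20 genes was called in each of the 8 runs that left out 1 of these libraries. All 20 kept the sign of their difference in each run. They were chosen from these same libraries, most of which each run reuses, so the kept signs are no independent support. Sp8 was called in 7 of the runs, Sox10 in 6 and Dmrt2 in 5.

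**Figure D2:**
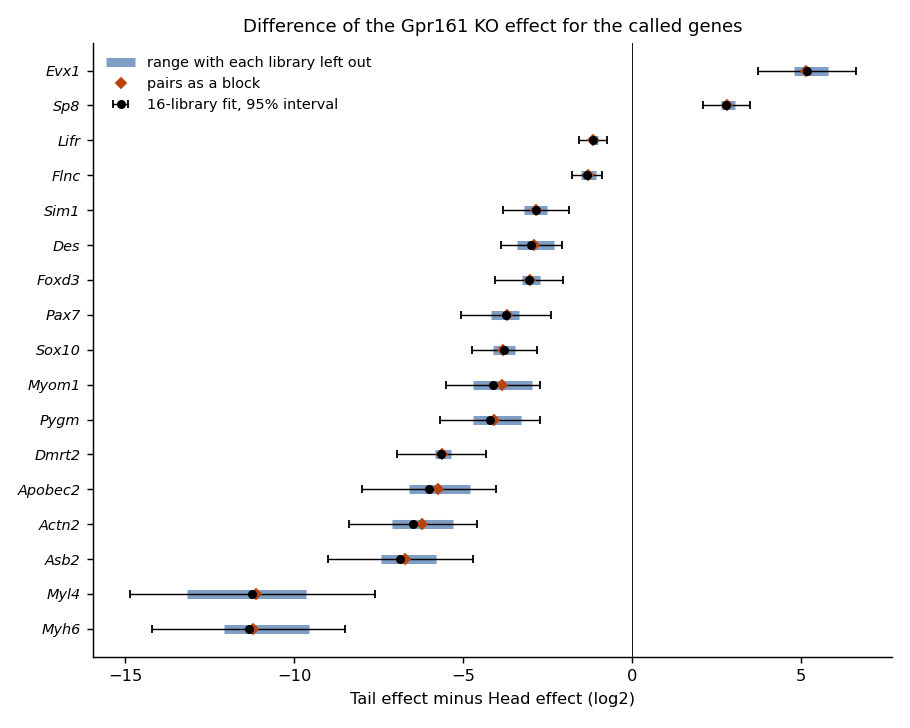
Tail effect minus Head effect (log2, horizontal axis) for 17 of the called genes. Black points and whiskers are the fit over 16 libraries with its 95% interval, and diamonds the fit with pairs as a block. Blue bars are the range over the 8 runs that left out 1 library each. No bar crosses 0 for these genes, which were chosen from the same libraries.

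The neural crest transcription factors Sox10 and Foxd3 fell in the Tail and did not pass the test in the Head. Sox10 (ENSMUSG00000033006), which marks migrating neural crest and specifies its glial and pigment derivatives, had 28.1 and 17.9 CPM in Head WT and 25.9 and 30.4 CPM in Head KO. In Tail WT it had 19.4 and 24.2 CPM, and in Tail KO 2.37 and 1.5 CPM. The Head groups overlapped and the Tail groups did not. The fold change was 0.29 ± 0.30 in the Head (log2, SE; adjusted p = 0.768) and -3.49 ± 0.34 in the Tail (adjusted p = 0.000433), and the difference was -3.78 ± 0.44 (adjusted p = 0.00792). In a bulk sample, fewer cells of a type and less RNA per cell cannot be told apart.

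Foxd3, a neural crest specifier, had 2.56 and 3.50 CPM in Head WT, 5.22 and 7.47 CPM in Head KO, 6.03 and 7.91 CPM in Tail WT and 1.90 and 1.63 CPM in Tail KO. It was thus above both WT libraries in both Head KO libraries and below both in the Tail. Its fold change was 1.07 in the Head (adjusted p = 0.133) and -1.98 in the Tail (adjusted p = 0.0236), with a difference of -3.05 ± 0.46 (adjusted p = 0.0335).

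The list of migrating neural crest and glia had 18 genes tested, of which these 2 were lower and none higher in the difference. Its median difference was -0.32 against -0.02 over all genes tested, with medians of 0.19 in the Head and -1.01 in the Tail. With pairs as a block, 4 members were lower, among them Foxd3 and, named after their values were seen, Erbb3 and Cdh19. Erbb3, the neuregulin receptor of crest-derived glia, had 24.6 and 22.9 CPM in Tail WT and 12.6 and 11.1 CPM in Tail KO, while Head WT had 26.4 and 18.5 CPM and Head KO 36.6 and 28.4 CPM. Its difference was -1.54 (adjusted p = 0.119) and -1.55 with the block (adjusted p = 0.00436). Cdh19, an adhesion gene of Schwann cell precursors, went from 0.766 and 1.33 CPM in Tail WT to 0.0474 and 0.0517 CPM in Tail KO, with 1.43 to 1.91 CPM in the 4 Head libraries. Its difference was -4.59 (adjusted p = 0.0598), and its adjusted p with the block was 0.0151. Summed over the list, Tail levels were 649 and 634 CPM in WT and 664 and 609 CPM in KO, so the summed level did not follow these members.

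The dermomyotome, the dorsal part of the somite that gives rise to skeletal muscle and dermis, had the lowest list median outside the heart muscle list. Of 22 genes tested, 0 were higher and 3 lower in the difference, 22 had a negative estimate, and the median was -3.65. In the Tail 5 members fell, with a list median of -2.68, whereas the Head median was 0.25 with 2 members higher and 2 lower. Summed levels were 412 and 542 CPM in Tail WT and 128 and 134 CPM in Tail KO. In the Head they were 267 and 231 CPM in WT and 955 and 380 CPM in KO. Actc1, a sarcomeric actin that is also on the heart muscle list and was named after its values were seen, made up 668 and 159 CPM of the Head KO sums. With the block 0 members were higher and 4 lower.

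Dmrt2 (ENSMUSG00000048138) is a transcription factor of the dermomyotome that acts upstream of Myf5. It had 45.9 and 37.4 CPM in Tail WT and 3.01 and 3.62 CPM in Tail KO, whereas Head WT had 0.852 and 0.751 CPM and Head KO 2.69 and 3.75 CPM. Head and Tail KO libraries thus met at a similar level, from opposite sides. The fold change was 2.00 in the Head (adjusted p = 0.0352) and -3.65 in the Tail (adjusted p = 0.00325), and the difference was -5.65 ± 0.61 (adjusted p = 0.00792).

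Sim1, expressed in the lateral dermomyotome and in ventral V3 interneurons, had 9.96 and 13.3 CPM in Tail WT, 5.52 and 3.38 CPM in Tail KO, 5.25 and 4.74 CPM in Head WT and 12.1 and 15.4 CPM in Head KO. It rose in the Head by 1.47 (adjusted p = 0.0324), and the Tail estimate was -1.38 (adjusted p = 0.121). The difference was -2.85 ± 0.45 (adjusted p = 0.0365).

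Pax7, a regulator of the dermomyotome, its muscle progenitors and the dorsal neural tube, fell in both. It had 21.1 and 20.6 CPM in Head WT and 2.32 and 2.05 CPM in Head KO, against 8.02 and 11.4 CPM in Tail WT and 0.0948 and 0.0517 CPM in Tail KO. The fold change was -3.26 in the Head (adjusted p = 0.000628) and -6.98 in the Tail (adjusted p = 2.26e-05), with a difference of -3.72 ± 0.62 (adjusted p = 0.0483). Its paralogue Pax3 fell alike, from 38.9 and 34.7 CPM to 5.71 and 6.26 CPM in the Head and from 55.5 and 54.7 CPM to 7.87 and 8.24 CPM in the Tail. For Pax3 the 95% interval of the difference was -0.64 to 0.33.

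The myogenic factors Myf5 and Myog, named after their values were seen, had the same sign without passing the threshold. Myf5 had 9.02 and 15.0 CPM in Tail WT and 1.33 and 2.69 CPM in Tail KO, with 1.35 and 0.986 CPM in Head WT and 4.36 and 4.56 CPM in Head KO. Its difference was -4.51 (adjusted p = 0.11). Myog had 18.4 and 34.5 CPM in Tail WT and 0.806 and 0.878 CPM in Tail KO, and at most 0.446 CPM in any Head library. Its difference was -4.32 (adjusted p = 1), and -4.39 with the block (adjusted p = 0.00588).

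**Figure D3:**
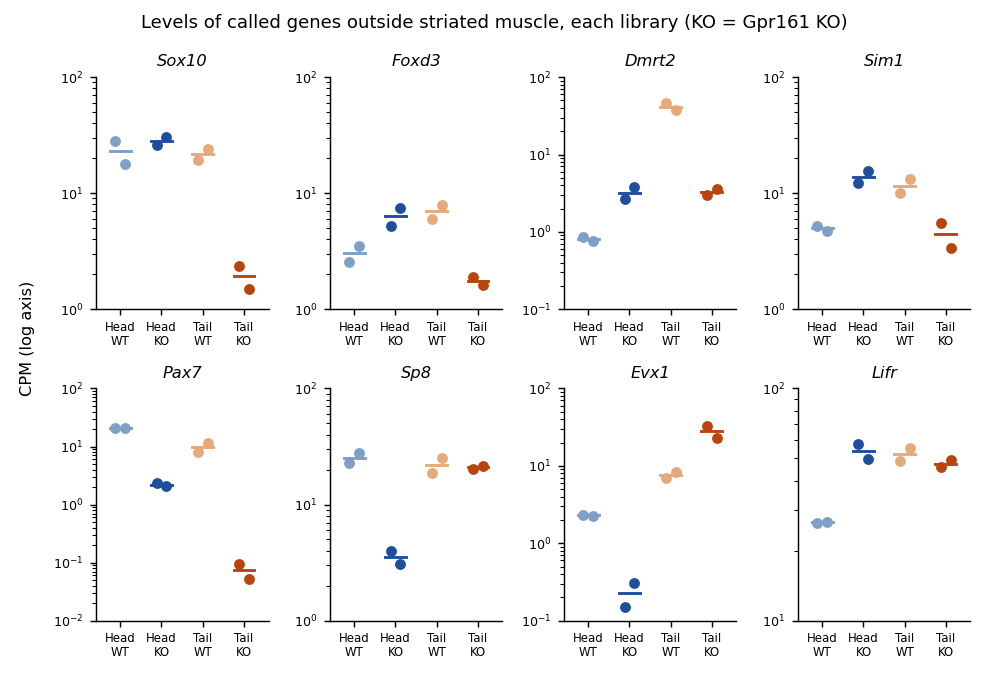
CPM on a log axis in each of the 8 libraries for 8 called genes outside striated muscle. Points are libraries, bars are group means, and KO means Gpr161 KO; Sox10 and Dmrt2 are low in Tail KO, and Sp8 is lowest in Head KO.

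Genes with a positive difference included Sp8 and Evx1, which fell in the Head. Sp8 (ENSMUSG00000048562), a zinc finger factor of the limb ridge, the forebrain and the spinal cord, had 22.9 and 27.9 CPM in Head WT and 3.97 and 3.07 CPM in Head KO. In the Tail it had 18.7 and 24.9 CPM in WT and 20.4 and 21.5 CPM in KO. Both Tail KO libraries lay within the WT range. The fold change was -2.85 ± 0.24 in the Head (adjusted p = 0.000126) and -0.06 ± 0.22 in the Tail (adjusted p = 1), and the difference was 2.79 ± 0.32 (adjusted p = 0.00792).

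Evx1 (ENSMUSG00000005503), a homeobox gene of the tail bud and of V0 interneurons, had the largest positive difference of the called genes. It had 2.29 and 2.28 CPM in Head WT and 0.148 and 0.303 CPM in Head KO, and 6.92 and 8.44 CPM in Tail WT and 32.5 and 23.2 CPM in Tail KO. The groups did not overlap in either. It fell by 3.32 in the Head (adjusted p = 0.00633), the Tail estimate was 1.86 (adjusted p = 0.116), and the difference was 5.18 ± 0.67 (adjusted p = 0.0187). Evx1os, a transcript from the opposite strand of the locus named after its values were seen, had 2.94 and 2.32 CPM in Head WT, 0 and 0.186 CPM in Head KO, 5.15 and 7.16 CPM in Tail WT and 31.0 and 17.8 CPM in Tail KO. Since the strand setting of the counting is not given in the sources used here, reads of Evx1 and Evx1os cannot be told apart. Other tail bud genes did not share a call: of 25 tested, 1 was higher and 0 lower, with a list median of 0.60, and 2 (Evx1 and Fgf17) were higher with the block.

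Wnt ligands and their feedback genes had no called member, with 31 tested, 15 at an unadjusted p under 0.05 by edgeR's quasi-likelihood test, and 6 higher and 2 lower by DESeq2. With pairs as a block, 7 were higher and 1 lower. Rspo3, a secreted enhancer of Wnt signalling, had the smallest p of the list. It had 21.1 and 13.8 CPM in Head WT and 5.10 and 4.45 CPM in Head KO, and 16.5 and 18.5 CPM in Tail WT and 24.9 and 19.4 CPM in Tail KO. It fell in the Head by 1.87 (adjusted p = 0.00501), the Tail estimate was 0.34 (adjusted p = 0.959), and the difference was 2.21 ± 0.38 (adjusted p = 0.0554; with the block 2.17, adjusted p = 0.00436).

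The ligands Wnt7a and Wnt3 are named after their values were seen. Wnt7a, a ligand of the dorsal ectoderm, had 11.8 and 13.8 CPM in Head WT, 3.10 and 4.70 CPM in Head KO, and 16.9 to 18.0 CPM in all 4 Tail libraries. Its difference was 1.78 (adjusted p = 0.0554; with the block 1.80, adjusted p = 0.00436). Wnt3 had 11.5 and 9.55 CPM in Head WT, 1.13 and 2.44 CPM in Head KO, 10.7 and 7.94 CPM in Tail WT and 7.58 and 7.41 CPM in Tail KO. Its difference was 2.24 (adjusted p = 0.0755; with the block 2.31, adjusted p = 0.00482). Over the list, 9 members fell and 0 rose in the Head, and 0 changed in the Tail, where 12 had an unadjusted p under 0.05.

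Wnt1, the roof plate and midbrain ligand, had the opposite sign. It had 7.42 and 6.76 CPM in Head WT and 12.5 and 13.0 CPM in Head KO, against 10.48 and 7.48 CPM in Tail WT and 2.44 and 1.65 CPM in Tail KO. Its difference was -2.97 ± 0.60 (adjusted p = 0.0858; with the block adjusted p = 0.107).

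Members of the Hedgehog target list rose in the Head and in the Tail, and no difference was detected. Of 20 tested, 0 were called in the difference by edgeR or DESeq2, 0 with the block, and 1 (Sfrp1) had an unadjusted p under 0.05. In the Head 8 rose and 0 fell, and in the Tail 7 rose and 0 fell, with list medians of 1.38 and 1.49 and a median difference of 0.05. Gli1, the transcriptional effector most directly induced by the pathway, had 36.4 and 43.7 CPM in Head WT and 80.3 and 88.9 CPM in Head KO. In the Tail it had 38.2 and 45.9 CPM in WT and 114 and 130.1 CPM in KO. Its difference was 0.46, with a 95% interval of -0.10 to 1.01.

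Ptch1, the Hedgehog receptor and a feedback inhibitor, had 136 and 162 CPM in Head WT, 484 and 479 CPM in Head KO, 138 and 153 CPM in Tail WT and 544 and 532 CPM in Tail KO. The 95% interval of its difference was -0.59 to 0.98. For Hhip, a ligand-binding inhibitor, the interval was -1.14 to 0.86. Foxa2, of the floor plate, had an interval of -1.63 to 0.50, and Foxf1, of the visceral mesoderm, of -1.33 to 1.64. For these genes differences of up to about the size of each bound are compatible with 2 libraries a group.

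Among ligands and transducers of the pathway, 0 of 22 were called in the difference, 5 had an unadjusted p under 0.05, and DESeq2 called 0. Shh, the ligand of notochord and floor plate, had 27.1 and 31.5 CPM in Head WT and 109.5 and 149 CPM in Head KO, against 13.4 and 19.4 CPM in Tail WT and 34.0 and 37.2 CPM in Tail KO. It rose by 2.14 in the Head (adjusted p = 0.00555), the Tail estimate was 1.12 (adjusted p = 0.274), and the difference was -1.03 ± 0.43 (adjusted p = 0.85). With the block 1 member was higher and 1 lower. Gas1, a co-receptor named after its values were seen, went from 196 and 175 CPM to 52.5 and 45.5 CPM in the Head and from 304 and 238 CPM to 120 and 112 CPM in the Tail. It fell in both, and its difference was 0.69 (adjusted p = 0.54; with the block 0.70, adjusted p = 0.00793).

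Scube1, a secreted protein of the family that helps release Hedgehog ligand, had 141 and 137 CPM in Head WT, 239 and 221 CPM in Head KO, 111 and 90.9 CPM in Tail WT and 81.0 and 93.5 CPM in Tail KO. Its difference was -0.94 (adjusted p = 0.271; with the block -0.93, adjusted p = 0.00459). In the floor plate and notochord list 8 of 16 members rose in the Head and 2 in the Tail, and 0 were called in the difference by edgeR, where 6 had an unadjusted p under 0.05 and DESeq2 called 3 lower. With the block 2 were lower, Slit2 (adjusted p = 0.0101) and Foxa1 (adjusted p = 0.0198). Slit2, a floor plate guidance cue and the gene next after the 20 by adjusted p of the difference (0.0502), had 86.3 and 98.8 CPM in Head WT and 229 and 336 CPM in Head KO, but 63.6 and 112 CPM in Tail WT and 62.3 and 60.7 CPM in Tail KO.

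Among dorsal and intermediate neural tube genes some fell in the Head and some in the Tail, and 0 rose in either. In the dorsal list, with 29 tested, 10 fell in the Head and 8 in the Tail, with medians of -1.21 and -2.13, and Pax7 was the 1 member called in the difference, lower. In that list 12 had an unadjusted p under 0.05, the block called 3 higher and 2 lower, and DESeq2 called 4 higher and 4 lower. In the intermediate list, with 15 tested, 4 fell in the Head and 6 in the Tail, with medians of -1.31 and -2.79. Sp8 was higher and Foxd3 lower there, with 8 at an unadjusted p under 0.05, 1 higher and 3 lower with the block and 1 higher and 4 lower by DESeq2. Pax6, of the intermediate neural tube and eye, fell from 74.2 and 72.3 CPM to 2.69 and 4.72 CPM in the Head and from 18.1 and 43.9 CPM to 3.65 and 4.86 CPM in the Tail. The fold changes were -4.30 (adjusted p = 0.000608) and -2.87 (adjusted p = 0.0138). Its difference was 1.43 ± 0.53 (adjusted p = 0.683). Irx5, a homeobox gene of the intermediate neural tube named after its values were seen, had 23.2 to 31.4 CPM in the 4 Head libraries, 30.7 and 24.6 CPM in Tail WT and 8.67 and 9.32 CPM in Tail KO. Its difference was -1.58 (adjusted p = 0.209; with the block -1.56, adjusted p = 0.00751).

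**Figure D4:**
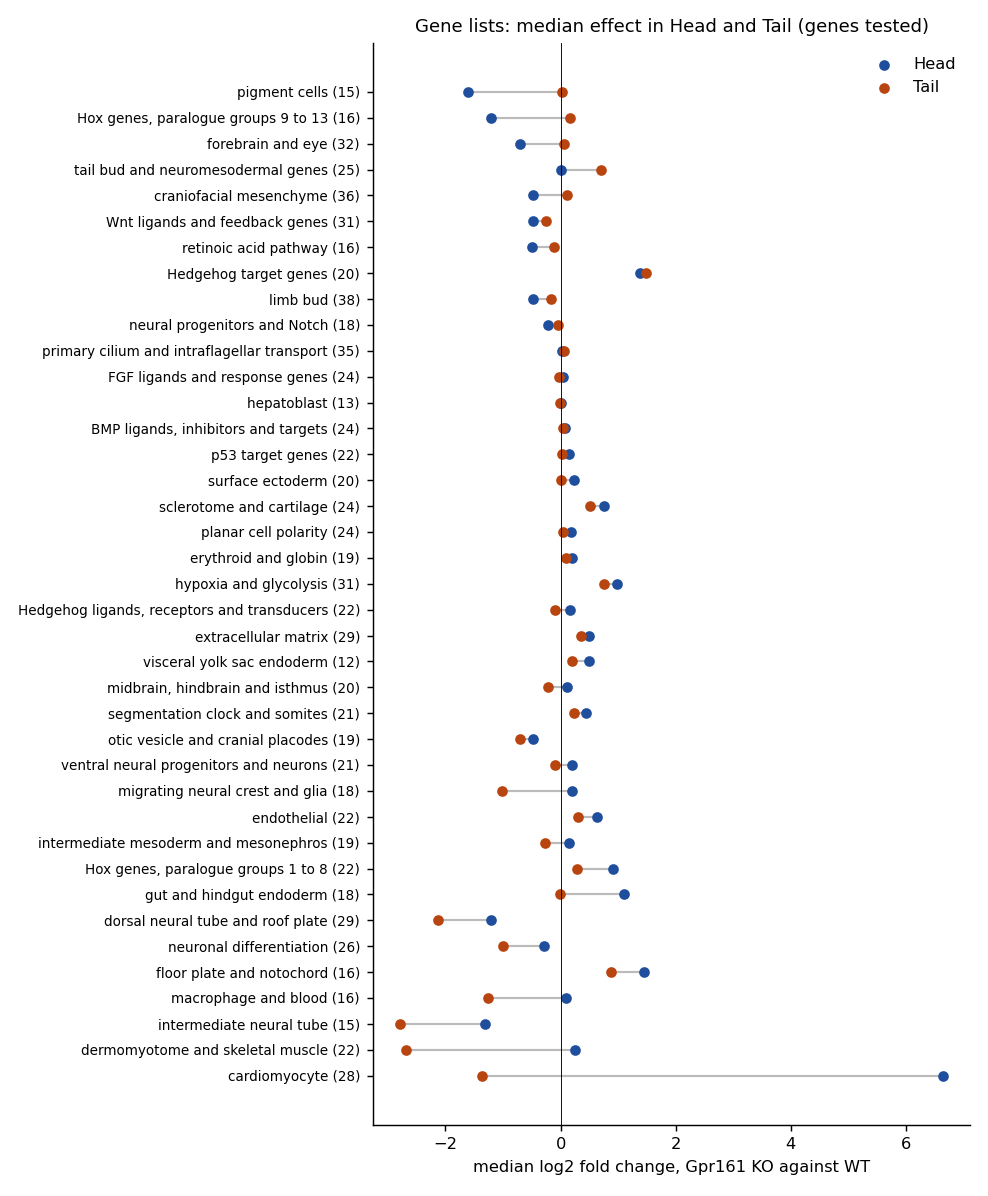
Median log2 fold change of Gpr161 KO against WT in the Head and in the Tail for 39 gene lists, with the number of genes tested in brackets. Lists are ordered by their median difference; Hedgehog target genes sit at 1.38 and 1.49, and the heart muscle list spans from -1.36 in the Tail to 6.65 in the Head.

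Genes of striated muscle rose in the Head KO libraries, and 4 of them had the differences of largest size among the called genes. Of the genes with a negative difference, these 9 encode parts of the contractile apparatus or other proteins of striated muscle, a grouping made after their values were seen: Myh6, Myl4, Asb2, Actn2, Apobec2, Pygm, Myom1, Des and Flnc. Myh6, a heavy chain of heart myosin, had 0.471 and 0.329 CPM in Head WT and 326 and 55.9 CPM in Head KO. In the Tail it had 0.814 and 1.81 CPM in WT and 0.237 and 0.232 CPM in KO. Both Head KO libraries were far above the other 6, and Head KO 1 above Head KO 2. The difference was -11.36 ± 1.29 (adjusted p = 0.0187). Reads may be shared with the near-identical Myh7, named after its values were seen, which had 425 and 88.7 CPM in Head KO and at most 5.99 CPM elsewhere.

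Myl4, an atrial myosin light chain, had 0.135 and 0.939 CPM in Head WT and 167 and 33.8 CPM in Head KO, against 5.34 and 11.7 CPM in Tail WT and 0.735 and 0.568 CPM in Tail KO. Its difference was -11.25 ± 1.62 (adjusted p = 0.0484). Actn2, the actinin of the sarcomeric Z-disc, had 1.19 and 1.34 CPM in Head WT, 69.5 and 19.9 CPM in Head KO, 3.52 and 6.45 CPM in Tail WT and 1.37 and 2.53 CPM in Tail KO, with a difference of -6.50 ± 0.87 (adjusted p = 0.0259). Des, the muscle intermediate filament desmin, had 9.60 and 9.93 CPM in Head WT and 79.9 and 37.7 CPM in Head KO, but 43.6 and 57.8 CPM in Tail WT and 33.1 and 44.0 CPM in Tail KO. The Tail groups of Des overlapped, and its difference was -2.99 ± 0.42 (adjusted p = 0.029).

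In the remaining muscle genes both Head KO libraries were again above both Head WT libraries. Asb2, a ubiquitin ligase adaptor of muscle, had 0.987 and 0.751 CPM in Head WT, 21.0 and 6.77 CPM in Head KO, and a difference of -6.86 (adjusted p = 0.0307). Apobec2, a muscle member of the cytidine deaminase family, had 0.650 and 0.657 CPM in Head WT, 13.1 and 3.68 CPM in Head KO, and a difference of -6.01 (adjusted p = 0.0335). Pygm, muscle glycogen phosphorylase, had 1.03 and 1.85 CPM in Head WT, 17.7 and 6.49 CPM in Head KO, and a difference of -4.21 (adjusted p = 0.0483). Each of these 3 had lower levels in both Tail KO libraries than in both Tail WT libraries, but none passed the test in the Tail (adjusted p of 0.191, 0.272 and 0.642).

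Myom1 encodes an M-band protein of the sarcomere, and its difference was -4.12 (adjusted p = 0.0365). Flnc, a filamin of the Z-disc named after its values were seen, had 33.4 and 28.9 CPM in Head WT and 95.1 and 70.7 CPM in Head KO, and 87.7 to 99.6 CPM in the 4 Tail libraries, with a difference of -1.33 (adjusted p = 0.0365). Head KO thus lay near the Tail level of this gene. In a fit of the 8 WT and Gpr161 KO libraries alone, 6 of the 9 muscle genes were no longer called: Myh6 (adjusted p = 0.232), Myom1 (0.219), Des (0.173), Myl4 (0.158), Actn2 (0.133) and Pygm (0.0581).

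**Figure D5:**
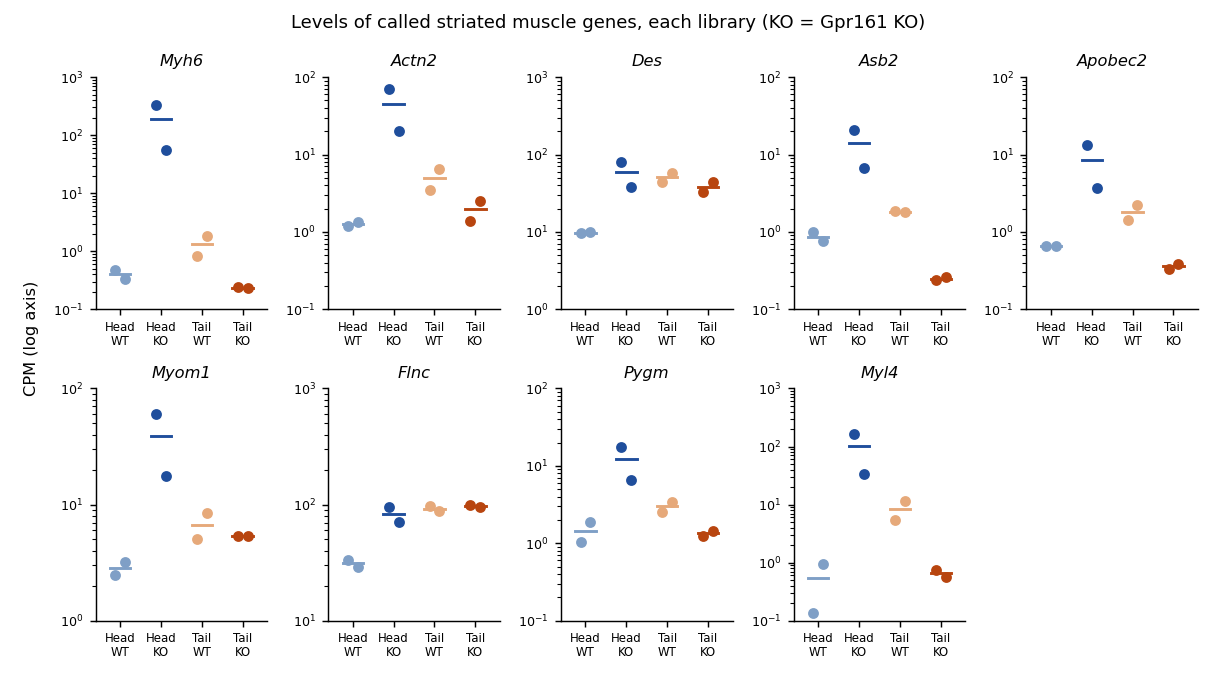
CPM on a log axis in each of the 8 libraries for 9 called genes of striated muscle. Points are libraries, bars are group means, and KO means Gpr161 KO; in each panel both Head KO libraries lie above both Head WT libraries, and Head KO 1 lies above Head KO 2.

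These levels moved with the list of heart muscle markers as a whole, of which Myh6, Actn2 and Myl4 are themselves members. In the Head 17 of its 28 tested members rose and 0 fell, with a median log2 fold change of 6.65, and in the Tail 0 changed by edgeR (10 at an unadjusted p under 0.05), with a median of -1.36. In the difference 0 were higher and 3 lower (Myh6, Actn2 and Myl4), with 25 at an unadjusted p under 0.05, 7 lower with the block and 18 lower by DESeq2. The median difference was -8.31, and -8.36 with the 5 members that have a group at 0 set to a bound of 3 counts over the group. The summed level of the list was 17.7 and 25.3 CPM in Head WT, 3023 and 678 CPM in Head KO, 118 and 239 CPM in Tail WT and 92.9 and 68.8 CPM in Tail KO. In Head WT 5 members were at 0 in both libraries and in Head KO 1 member was. Nkx2-5, the heart field regulator named after its values were seen, had 18.2 and 5.03 CPM in Head KO and at most 0.457 CPM in the other 6 libraries.

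Whether the Head KO pieces held heart tissue at dissection, and what part it has in the other Head differences, was not tested. With the heart muscle list removed before scaling, 13 of the other 17 genes stayed called. Pax7, Pygm and Lifr were among those that did not, each with an adjusted p of 0.053. That run took out the listed genes alone and left any other RNA of heart cells in the counts. It therefore cannot answer what part heart tissue has. The medians of 2 other cell type lists were smaller in the same libraries: endothelial genes had 0.63 in the Head and 0.29 in the Tail, and gut endoderm genes had 1.09 and -0.01. In the Head, 5 of 22 endothelial and 4 of 18 gut endoderm genes were called higher and 0 lower. The gut endoderm genes called there were Foxa1, Foxa2, Shh and Cdh1. Foxa1, Foxa2 and Shh are also floor plate genes, and Cdh1 is also on the surface ectoderm list, so these calls are not particular to gut endoderm. Over all genes tested the share called higher in the Head was 1.51%. In the difference 0 of 22 endothelial and 0 of 18 gut endoderm genes were called by edgeR, with 4 and 8 at an unadjusted p under 0.05 and 1 lower in each by DESeq2. The block called 1 lower in each, Erg (adjusted p = 0.0259) and Foxa1 (adjusted p = 0.0198), the latter being the same call as in the floor plate list. Lifr, a cytokine receptor subunit named after its values were seen, had 26.4 and 26.7 CPM in Head WT, 57.6 and 49.9 CPM in Head KO, 48.6 and 55.7 CPM in Tail WT and 45.9 and 49.1 CPM in Tail KO. Its difference was -1.15 (adjusted p = 0.0483).

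The promoters of the muscle genes are shown because these genes moved together. The window searched ran from 250 bases before to 50 bases after the transcription start in the RefSeq table for GRCm38.p6, which holds all 9 of these muscle genes. The hexamer CAGCTG reads the same on both strands and is a form of the E-box that myogenic bHLH factors bind. It is in the window of 4 of these 9 genes, and of 5 of the 16 called genes that the table holds. The share over all 32851 promoters is 16.3%. A gene was counted if any of its promoters held the hexamer, and the 16 genes have 21 promoters. The counts of genes and the share of promoters are thus in unlike units, and enrichment was not tested. For Des, Apobec2 and Pygm the hexamer lies before the start. The 250 bases before the start are printed 5′ to 3′ on the gene's strand, with the hexamer in capitals. Their positions are chr1:75360042-75360291 on the plus strand for Des, chr17:48432729-48432978 on the minus strand for Apobec2, and chr19:6384158-6384407 on the plus strand for Pygm.
Des: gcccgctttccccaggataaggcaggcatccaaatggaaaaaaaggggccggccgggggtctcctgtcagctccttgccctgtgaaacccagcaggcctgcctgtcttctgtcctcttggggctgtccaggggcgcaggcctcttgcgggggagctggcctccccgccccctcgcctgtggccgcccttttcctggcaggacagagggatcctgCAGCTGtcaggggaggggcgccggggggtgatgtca
Apobec2: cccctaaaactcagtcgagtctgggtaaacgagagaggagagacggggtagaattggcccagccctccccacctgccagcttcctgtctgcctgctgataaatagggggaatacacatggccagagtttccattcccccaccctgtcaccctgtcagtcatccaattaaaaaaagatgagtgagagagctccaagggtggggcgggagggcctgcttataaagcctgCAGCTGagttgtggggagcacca
Pygm: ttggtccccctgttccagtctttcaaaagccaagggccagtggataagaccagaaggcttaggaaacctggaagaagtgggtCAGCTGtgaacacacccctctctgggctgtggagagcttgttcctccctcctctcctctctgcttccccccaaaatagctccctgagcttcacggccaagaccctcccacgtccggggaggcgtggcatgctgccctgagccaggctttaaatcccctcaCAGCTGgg
The hexamer occurs once in the printed bases of Des and Apobec2 and at 2 places in Pygm. A match of letters is a description and not a binding site. The Gli motif GACCACCCA, searched on both strands, was in 0.253% of promoters and in 0 of the 16 called genes that the table holds.

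In the DKO, which lacks Fuz as well, the same Tail minus Head quantity was smaller in size for 20 of the 20 genes. It was -0.27 for Sox10, -1.93 for Dmrt2, -0.62 for Sp8 and -0.03 for Evx1, against -3.78, -5.65, 2.79 and 5.18 in Gpr161 KO. The 20 genes were chosen for a large value in Gpr161 KO, so smaller values in the DKO follow in part from that choice. Levels of Sox10 in the DKO were 18.7 and 22.8 CPM in the Head and 19.3 and 13.4 CPM in the Tail. A direct test of Gpr161 KO against DKO for Tail minus Head called 57 of 21284 genes (0.268%), among them 17 of the 20. This test uses the same Gpr161 KO libraries as the difference through which the 20 were chosen, so it is no independent support. For Myh6 the DKO had 1.13 and 0.686 CPM in the Head, near the Head WT level, and for Pax7 it had 16.5 and 13.9 CPM in the Head and 7.30 and 3.99 CPM in the Tail.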

How the data were processed

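Raw counts per Ensembl gene in each library were deposited by the authors without normalization, from poly-A selected RNA per the labels' protocols. The submitters' processing notes name STAR 2.7.1a, StringTie 2.0.4, featureCounts 1.6.0, HTSeq and GRCm39. Which tool made the counts, and whether strand was used, is not given in the sources used here, so overlapping and antisense genes are uncertain. Of 54838 identifiers 54723 were named from GENCODE tables, used for names and chromosomes alone.

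Counts of all 16 libraries were fitted in 1 model with a coefficient per group by edgeR 4.0.16 in R 4.3.3 (filterByExpr, TMM, robust quasi-likelihood F-test), with 8 residual degrees of freedom. A gene was called at a Benjamini-Hochberg adjusted p under 0.05 over the 21284 genes tested. SEs come from the F statistic. Pearson's r across genes between the number 1 minus number 2 differences of Head and of Tail was 0.133 (WT), 0.196 (Gpr161 KO), 0.282 (DKO) and 0.437 (Fuz KO). Of the 12 values between unlike genotypes (-0.0518 to 0.268) 4 also exceeded 0.1, and each was below both same-genotype values of its own Head and Tail. All same-genotype values exceed 0.1, so equal numbers were taken as pairs. The highest unlike value, 0.268, lies above the WT and Gpr161 KO values, so the cut of 0.1 does not by itself separate pairs from other combinations. A model with genotype and number as a block (4 residual degrees of freedom) stands beside the results. The labels do not say that a number marks an embryo. DESeq2 1.42.0 was an alternative, and the steps were tested on simulated data.

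The genes, the 39 lists (720 symbols, 1 not found) and the tests were chosen with earlier results of these data known. Named are a fixed Hedgehog and Pax set; the 10 called genes with the largest difference in each direction outside the heart muscle list, at a mean of at least 5 CPM in 1 group; the 5 called heart muscle genes with the smallest p; up to 3 called members of each list; and the member with the smallest p of a list without a call. Some genes that this rule names, and some that were called, are not reported here. Genes outside this rule, apart from those that check the libraries, are said to be chosen after their values were seen.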

Additional observations from a re-analysis of the deposited data

Results flagged for a closer look

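These 17 called genes are listed because the Gpr161 KO effect differed between Tail and Head by the test of the difference itself (edgeR's quasi-likelihood test, adjusted p between 0.00792 and 0.0484). The values are Tail effect minus Head effect in log2. The positive ones were 5.18 for Evx1 and 2.79 for Sp8. Negative values outside striated muscle were -5.65 for Dmrt2, -3.78 for Sox10, -3.72 for Pax7, -3.05 for Foxd3, -2.85 for Sim1 and -1.15 for Lifr. Those of striated muscle were -11.36 for Myh6, -11.25 for Myl4, -6.86 for Asb2, -6.50 for Actn2, -6.01 for Apobec2, -4.21 for Pygm, -4.12 for Myom1, -2.99 for Des and -1.33 for Flnc. With 2 libraries in each group, no library was tested for standing apart from its group.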

How the results depend on the processing

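Counts of called genes are given as all, higher and lower. Against 20, 4 and 16 for the difference, they were 439, 79 and 360 without a filter on low counts, 225, 42 and 183 by DESeq2, and 111, 25 and 86 with only the 8 WT and Gpr161 KO libraries in the fit, where 13 of the 20 stayed called. They were 217, 39 and 178 with the replicate block of genotype and number, and 53, 10 and 43 with the replicate block of number alone. Without the heart muscle list 13 were called, 9 of them lower. Leaving out each library in turn gave 0 to 50 in all, 0 to 4 higher and 0 to 46 lower. Alternatives added after seeing the data gave 156, 31 and 125 without both Fuz KO 1 libraries, 142, 32 and 110 without both Fuz KO 1 and both DKO 1 libraries (14 of the 20 among them), and 1, 0 and 1 without both Gpr161 KO 1 libraries, where 799 genes had an unadjusted p under 0.05.

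For the Head (429, 321 and 108) the same settings gave 1319, 902 and 417 without a filter, 974, 662 and 312 by DESeq2, 2290, 1239 and 1051 with 8 libraries, and 659, 494 and 165 with the number as replicate block. Without both Fuz KO 1 libraries there were 1039, 758 and 281, without both Fuz KO 1 and both DKO 1 libraries 2211, 1249 and 962, and without both Gpr161 KO 1 libraries 83, 59 and 24. Leaving out each library gave 42 to 325 in all, 19 to 223 higher and 23 to 103 lower.

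For the Tail (65, 17 and 48) they gave 802, 303 and 499 without a filter, 316, 95 and 221 by DESeq2, 311, 134 and 177 with 8 libraries, and 122, 41 and 81 with the number as replicate block. Without both Fuz KO 1 libraries there were 256, 85 and 171, without both Fuz KO 1 and both DKO 1 libraries 348, 138 and 210, and without both Gpr161 KO 1 libraries 13, 2 and 11. Leaving out each library gave 11 to 67 in all, 1 to 16 higher and 10 to 51 lower.

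Scaling by RLE, the filter of 5 CPM and removal of haemoglobin and mitochondrial genes gave 20, 22 and 16 called differences. The cause of these shifts was not tested, and where a library was left out the lone one was taken to vary as other groups do. None of the 20 genes changed sign in any setting that tested it. They were chosen from these same counts, so this is no independent support. Signs turned for 4 uncalled genes. Leaving out single libraries, Hhip ran from -0.46 to 0.18, Foxa2 from -0.97 to 0.0027, Hba-a1 from -0.54 to 0.0817 and Foxf1 from -0.36 to 1.05, and Foxf1 was -0.32 without both Gpr161 KO 1 libraries. In simulated counts of the 21284 genes for this difference, edgeR recovered 8% of 50 changes of log2 size 1, 42% at size 2, 60% at 3 and 68% at 4. DESeq2 recovered 26%, 60%, 64% and 80% at these sizes. Calls on unchanged genes were 35 by DESeq2, 5 by edgeR and 2 with pairs as a block. The DESeq2 counts in this account carry this limit. Each simulated library was drawn independently, without Head and Tail pairs. The value of 2 is therefore no measure of false calls among the genes called with the block in the real libraries.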

Other observations

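Pigment cell genes had a list median of the difference of 2.10 with 15 tested, and of 0.96 with the 2 members that have a group at 0 set to the bound of 3 counts over the group. In the Head 4 of the 15 fell and 0 rose (median -1.60), and in the Tail 1 fell (median 0.03). By edgeR 0 were higher in the difference and 1 lower, which was Sox10, and DESeq2 called 2 higher and 1 lower. Trpm1, a channel of pigment cells named after its values were seen, had 19.2 and 17.0 CPM in Head WT, 0.0985 and 0.186 CPM in Head KO, 0.742 and 0.960 CPM in Tail WT and 0.237 and 0.568 CPM in Tail KO. It fell by 6.95 in the Head (adjusted p = 0.00909), and its difference was 5.87 (adjusted p = 0.219; with pairs as a block 5.87, adjusted p = 0.000337). At this stage the retinal pigment epithelium lies in the Head, and the Tail levels are low in both genotypes.

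Tbx4, a hindlimb regulator named after its values were seen, had 46.4 and 31.2 CPM in Tail WT and 41.6 and 53 CPM in Tail KO, and less than 1 CPM in each Head library. Among 38 limb bud genes tested, 1 (Sp8) was higher in the difference and 0 lower, with a median of 0.05. With pairs as a block 5 were higher and 2 lower. Tbx4 was among the 5 higher, with Head levels under 1 CPM as given above. Genes of the primary cilium and intraflagellar transport had 0 of 35 called in the Head, the Tail or the difference by edgeR, with 3, 0 and 0 at an unadjusted p under 0.05, and DESeq2 called 0 in the difference. Over all 21284 genes tested, 2747, 1486 and 1119 had such an unadjusted p by edgeR. Erythroid genes, with 19 tested, had 0 called in the difference by edgeR or DESeq2, 0 at an unadjusted p under 0.05 and a median of -0.17.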
